A study of Mus musculus with 6 samples.

Results

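Metallothionein genes and glucocorticoid-induced genes were examined in cells of bronchoalveolar lavage fluid, which is saline rinsed through the lung and recovered. The 8 genes were fixed by name as Mt1 and Mt2 (metallothioneins), Fkbp5, Tsc22d3, Dusp1, Per1 and Klf9 (induced by glucocorticoids) and Nr3c1 (the glucocorticoid receptor). All 8 were among the 22800 genes of the deposited table, and all 8 were among the 10405 tested. The 6 RNA-seq libraries were 3 from mice that received 20 µg of sulfatide into the peritoneum (replicates 1, 2 and 3) and 3 from mice that received vehicle (replicates 2, 3 and 4). Sulfatide is a sulfated glycolipid that CD1d presents to type II natural killer T cells, and the series is titled as a study of how such cells reprogram alveolar macrophages in lung ischemia-reperfusion injury. Strain, sex, age, time after injection and whether the mice underwent ischemia are not given in the labels. Whether each library is a different mouse is not stated either, and the p-values therefore rest on a spread between libraries that may be technical.

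Metallothioneins are small cysteine-rich proteins that bind zinc and copper, and their genes are switched on by the zinc-sensing factor MTF1 through metal response elements. Glucocorticoids and interleukin-6 signalling through STAT3 also induce them. A glucocorticoid binds its receptor, which is held in the cytosol by heat shock protein 90, and the receptor then enters the nucleus, binds glucocorticoid response elements, induces genes such as Fkbp5 and Tsc22d3 and damps cytokine genes in macrophages. Dusp1 and Klf9 are also induced by other signals, Dusp1 by the stress kinases that its product switches off.

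FPKM (fragments normalised to transcript length and library size, the deposited unit) summed to 1217971 to 1249691 in the sulfatide libraries and to 1126779 to 1168474 in the vehicle libraries. Relative depth, read from the most frequent ratio of low values to those of vehicle replicate 2, was 0.848 to 1.21 in sulfatide libraries and 1.01 to 1.06 in the other vehicle libraries. Absolute depth is unknown. Most of 13 macrophage genes were high in every library, among them Adgre1 (433 ± 61.8 FPKM in sulfatide and 532 ± 39.3 FPKM in vehicle, SD, n = 3 each). Mertk averaged only 3.73 and 3.18 FPKM. By limma, Mrc1 was called higher (29.7 ± 4.03 and 11.1 ± 3.09 FPKM, adjusted p = 0.00143) and Cd14 lower (2360 ± 167 and 3657 ± 69.6 FPKM, adjusted p = 0.00112). The 15.4% called lie beside 18.7% of all genes tested, and so are no result about the list. The 15 alveolar macrophage markers gave a mixed picture and summed to 949 to 1168 FPKM in sulfatide and 532 to 623 FPKM in vehicle. Fabp5 alone made up most of these sums, at 832 to 947 FPKM in sulfatide and 372 to 402 FPKM in vehicle. The sums therefore do not describe the markers as a set. Marco averaged 103 FPKM in sulfatide and 93.1 FPKM in vehicle and Chil3 31.2 and 25.1 FPKM, whereas Fabp1, Krt79 and Cidec were listed at 0 throughout and Siglecf averaged 0.790 FPKM in sulfatide and 0.157 FPKM in vehicle. Of the 9 tested, Fabp5 was higher (892 ± 57.6 FPKM in sulfatide and 384 ± 15.6 FPKM in vehicle), and Plet1 (3.39 ± 1.55 and 39.7 ± 11.1 FPKM) and Itgax (2.30 ± 0.217 and 4.49 ± 1.15 FPKM) were lower at an adjusted p below 0.05 by limma. Itgax did not pass without sulfatide replicate 1 (adjusted p = 0.0521) or vehicle replicate 2 (0.0547). Over all genes tested, 8.31% were called higher and 10.4% lower by the same rule. Summed levels of 14 neutrophil markers were 1157 to 1465 FPKM in sulfatide and 513 to 627 FPKM in vehicle. Of the 8 tested, 3 were called higher (S100a8, Mmp8 and Lcn2), beside the 8.31% of all genes. For Mmp8 the call was near the threshold (adjusted p = 0.0439 by limma). Its groups overlapped, with 28.5 FPKM in sulfatide replicate 1 and 29.8 FPKM in vehicle replicate 2. Most of the sum in both groups was Lcn2 (758 FPKM in sulfatide and 337 FPKM in vehicle on average) and S100a8 (419 and 105 FPKM). S100a9 averaged 21.2 FPKM in sulfatide and 21.9 FPKM in vehicle, and the defining marker Ly6g was listed at 0 in the sulfatide libraries and averaged 0.060 FPKM in vehicle. Of the 13 lung epithelium markers 12 stayed under 1 FPKM in all libraries, as did 14 of 15 markers of T, NKT and NK cells. In such bulk libraries fewer cells of a type and less RNA per cell cannot be told apart.

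Mt1 and Mt2 were about 2-fold higher in sulfatide libraries than in vehicle libraries, none of the 5 glucocorticoid-induced genes was called higher, and Dusp1 was called lower. By limma on log2(FPKM + 1), with a call at a Benjamini-Hochberg adjusted p below 0.05 over all 10405 genes, 2 of the 8 genes were higher (Mt1 and Mt2) and 1 was lower (Dusp1). Of all genes tested, 8.31% were called higher and 10.4% lower, 18.7% in all, and with 8 genes the count of calls is by itself no result about them. Higher genes made up 44.5% of all calls, and 23.4% after rescaling to TPM. The groups did not overlap for 4 of the 8 genes (Mt1, Mt2, Dusp1 and Fkbp5), beside 37.0% of all genes tested.

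**Figure D1:**
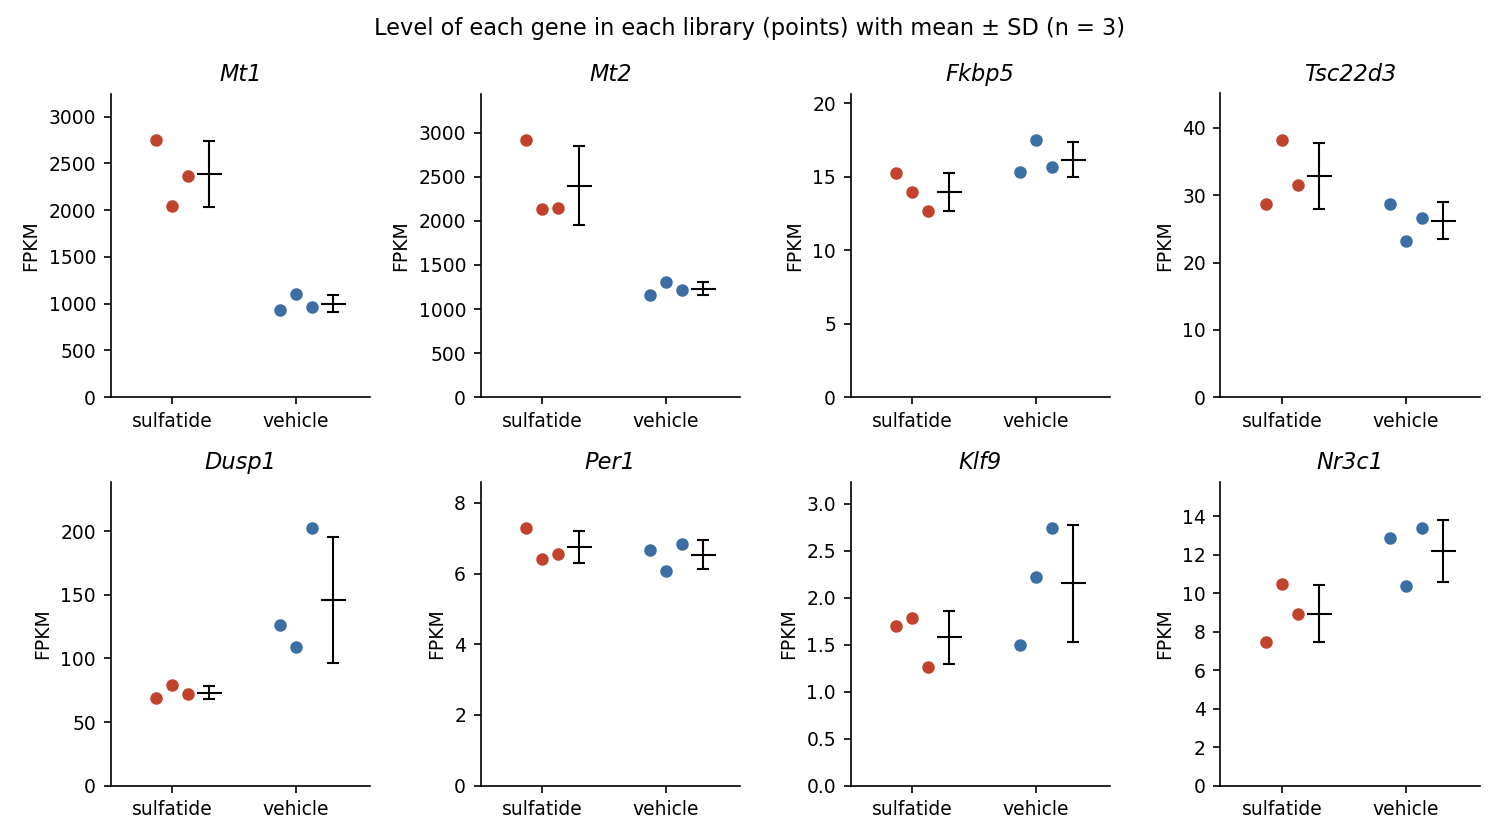
FPKM of each of the 8 genes in each library (points), with the mean and SD of 3 libraries per group beside them, on axes that start at 0. The sulfatide libraries lie above all vehicle libraries for Mt1 and Mt2 and below them for Dusp1, and the groups overlap for Tsc22d3, Per1, Klf9 and Nr3c1.

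Mt1 was at 2751, 2046 and 2369 FPKM in sulfatide replicates 1, 2 and 3, and at 928, 1103 and 966 FPKM in vehicle replicates 2, 3 and 4. The lowest sulfatide library lay well above the highest vehicle library. Mt1 rose 2.39-fold on the means (2388 ± 353 FPKM in sulfatide and 999 ± 92.3 FPKM in vehicle, SD, n = 3 each), with a log2 fold change of 1.25 ± 0.12 (SE, adjusted p = 0.000205). Mt2 was at 2921, 2133 and 2147 FPKM in the sulfatide libraries and at 1163, 1308 and 1215 FPKM in the vehicle libraries. As for Mt1, sulfatide replicate 1 held the highest level and the groups were far apart. Mt2 rose 1.95-fold (2400.3 ± 451 FPKM in sulfatide and 1229 ± 73.4 FPKM in vehicle), with a log2 fold change of 0.95 ± 0.13 (adjusted p = 0.00111). Among all genes of a library, both lay above the 99th percentile of level, between the 99.1st and 99.8th. The brain-type Mt3 stayed at or below 0.450 FPKM and Mt4, known from squamous epithelium, was listed at 0 in all 6, so neither was tested.

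The pair together made up 0.454, 0.343 and 0.364% of the summed FPKM in sulfatide replicates 1, 2 and 3, and 0.184, 0.206 and 0.194% in vehicle replicates 2, 3 and 4. This share was 0.387 ± 0.0589% in sulfatide and 0.195 ± 0.0113% in vehicle (exact permutation test, 2-sided, p = 0.1, the smallest that 3 against 3 libraries can give). The ratio of Mt2 to Mt1 was 1.06, 1.04 and 0.906 in the sulfatide libraries and 1.253, 1.19 and 1.26 in the vehicle libraries. The log2 ratio was 0.00 ± 0.12 in sulfatide and 0.30 ± 0.05 in vehicle, a difference of -0.30 without overlap of the groups (exact permutation test, 2-sided, p = 0.1, again the smallest possible). Their coding sequences, of 183 bases each with 20 cysteine codons among 61, were 79.2% identical, and the longest identical run between the main transcripts was 20 bases, short of the 150-base reads.

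**Figure D2:**
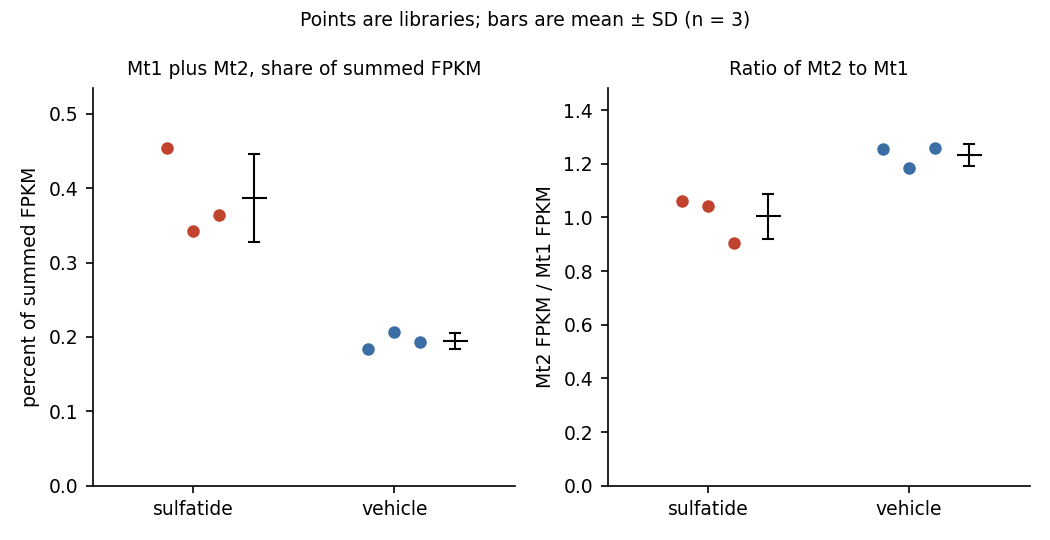
Left, Mt1 plus Mt2 as a percent of the summed FPKM of each library, and right, the ratio of Mt2 FPKM to Mt1 FPKM, with points for libraries and bars for mean and SD (n = 3). The share is higher and the ratio lower in each sulfatide library than in every vehicle library.

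Mt2 (chromosome 8, 94172664 to 94173568) and Mt1 (94179082 to 94180327) are neighbours on the plus strand of mm10, 5513 bases apart by the GENCODE annotation, each with 3 exons. Their promoters are shown because the genes rose together, and that of Dusp1 because it fell. Promoter windows of 300 bases (250 before and 50 after an annotated start) came from RefSeq on GRCm38.p6, the assembly called mm10. They were found for 7 of the 8 genes, all but Nr3c1, with 10 starts in all. Both strands were searched for the metal response element core (TGCACNC or TGCGCNC), the glucocorticoid response element (GNACANNNTGTNC), the cyclic AMP response element (TGACGTCA) and the E-box (CACGTG). No match overlapped another in these windows. The 250 bases before the start are printed 5′ to 3′ on the strand of the gene, with matches in capitals, for Mt1 (chr8:94178839-94179088, plus strand), Mt2 (chr8:94172368-94172617, plus strand) and Dusp1 (chr17:26508473-26508722, minus strand).
Mt1: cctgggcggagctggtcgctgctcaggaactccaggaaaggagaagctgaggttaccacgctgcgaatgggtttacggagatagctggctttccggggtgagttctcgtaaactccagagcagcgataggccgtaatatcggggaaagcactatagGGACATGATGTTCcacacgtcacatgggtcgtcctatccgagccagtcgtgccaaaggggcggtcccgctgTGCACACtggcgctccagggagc
Mt2: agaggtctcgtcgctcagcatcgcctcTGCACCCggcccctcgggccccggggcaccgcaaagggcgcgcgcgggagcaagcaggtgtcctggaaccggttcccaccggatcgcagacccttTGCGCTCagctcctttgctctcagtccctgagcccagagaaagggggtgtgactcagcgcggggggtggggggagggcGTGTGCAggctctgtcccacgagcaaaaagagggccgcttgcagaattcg
Dusp1: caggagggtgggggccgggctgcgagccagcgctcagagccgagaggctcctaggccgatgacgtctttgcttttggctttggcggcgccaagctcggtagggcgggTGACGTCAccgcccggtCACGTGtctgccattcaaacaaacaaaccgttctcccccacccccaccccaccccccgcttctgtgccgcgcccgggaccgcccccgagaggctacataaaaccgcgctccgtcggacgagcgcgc

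In Mt1 the capitals mark the glucocorticoid element, at positions -94 to -82 from the start, and a metal element core at -23 to -17. A further 2 metal cores begin at positions 3 and 21, counted from the RefSeq start. In Mt2 they mark metal cores that begin at -223, -128 and -50, and 1 more begins at position 5, again from the RefSeq start. The RefSeq starts are 94179089 for Mt1 and 94172618 for Mt2, whereas GENCODE starts the main transcripts at 94179082 and 94172664. The Mt2 core at position 5 thus lies before the GENCODE start. Further GENCODE starts lie downstream and beyond these windows, at 94179211 and 94179241 for Mt1 and at 94172860 for Mt2. Of 32851 windows of the same length, 25.7% held at least 1 metal core, 1.97% at least 3 as in Mt1, and 0.517% at least 4 as in Mt2. The glucocorticoid element was in 0.475% of windows, and among the 10 windows of these genes it was matched in that of Mt1. The Dusp1 window held a cyclic AMP element (1.79% of windows), an E-box (7.15% of windows) and 1 metal core across its start. E-boxes were also matched in the Fkbp5 window and at the first Per1 start, the second Per1 start held 1 metal core, and none of the 4 motifs was matched in the Klf9 window or the 3 Tsc22d3 windows. These matches describe the letters in the windows and no binding was measured.

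**Figure D3:**
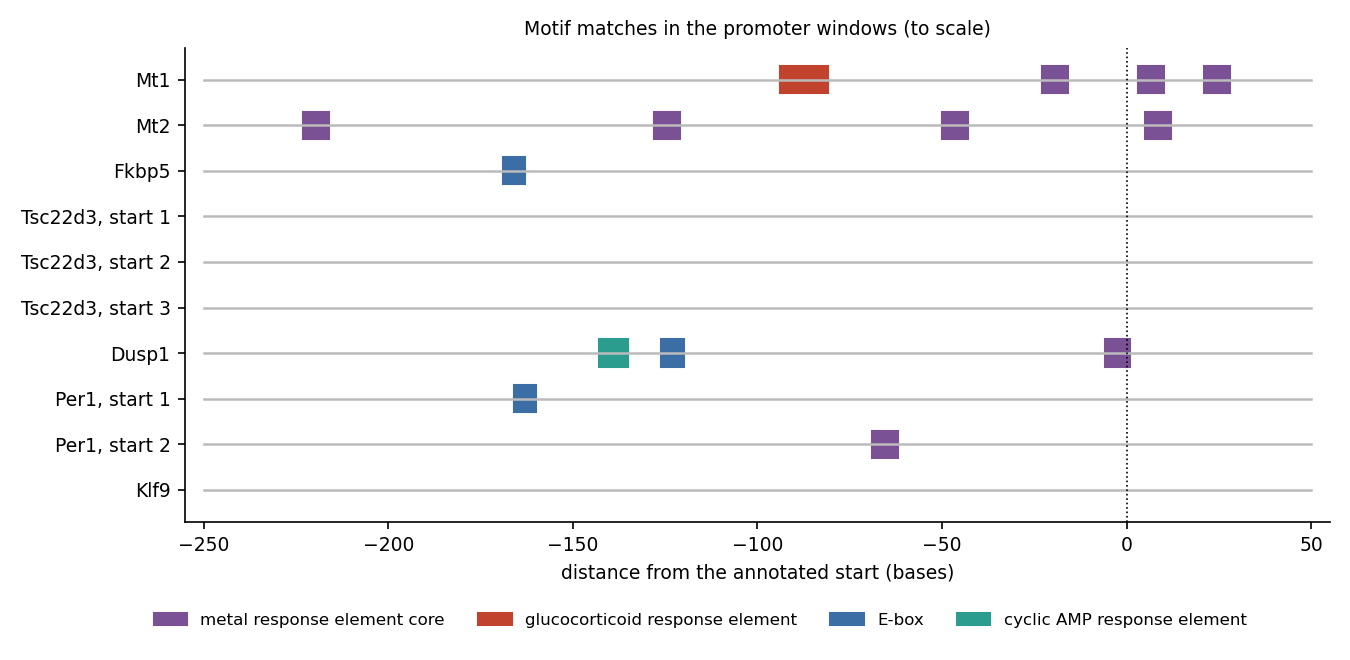
Motif matches in the RefSeq promoter windows, drawn to scale by distance in bases from the annotated start (dotted line), with 1 row for each start. Mt1 holds 3 metal response element cores and 1 glucocorticoid response element, and Mt2 holds 4 metal cores.

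Among the glucocorticoid-induced genes, Dusp1 encodes the phosphatase that inactivates p38 and JNK kinases. Dusp1 was at 68.8, 78.9 and 71.8 FPKM in the sulfatide libraries and at 127, 109 and 202 FPKM in the vehicle libraries. The sulfatide libraries were close together and all below the vehicle libraries, which were spread and had their highest value in replicate 4. Dusp1 fell to 73.2 ± 5.19 FPKM in sulfatide, against 146 ± 49.6 FPKM in vehicle, 2.00-fold lower (log2 fold change -0.94 ± 0.20, adjusted p = 0.0117). Its span in GENCODE (chromosome 17, 26505590 to 26562128, minus strand) overlaps Ergic1 on the opposite strand. Whether counting used the strand is not given, which also bears on Mt2, overlapped by the antisense gene Gm45774. Ergic1 was at 40.7 and 40.2 FPKM in sulfatide and vehicle on average.

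Fkbp5 encodes the co-chaperone FKBP51, which lowers the hormone affinity of the receptor and is a widely used readout of receptor activity. Fkbp5 was at 15.24, 13.95 and 12.65 FPKM in the sulfatide libraries and at 15.31, 17.51 and 15.63 FPKM in the vehicle libraries. The groups were adjacent, with less than 0.1 FPKM between the highest sulfatide and the lowest vehicle library, and the difference did not pass (log2 fold change -0.20 ± 0.11, 95% interval -0.44 to 0.05, adjusted p = 0.229). Tsc22d3 encodes GILZ, a leucine zipper protein that mediates part of the anti-inflammatory action of glucocorticoids. Tsc22d3 was at 28.7, 38.2 and 31.5 FPKM in the sulfatide libraries and at 28.7, 23.3 and 26.7 FPKM in the vehicle libraries. Sulfatide replicate 1 and vehicle replicate 2 held nearly the same level, and the difference did not pass (log2 fold change 0.31 ± 0.13, interval 0.02 to 0.59, adjusted p = 0.125).

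Per1, a period gene of the circadian clock with a glucocorticoid-responsive promoter, was at 7.28, 6.42 and 6.56 FPKM in the sulfatide libraries and at 6.68, 6.07 and 6.85 FPKM in the vehicle libraries. The groups were interleaved, with a log2 fold change of 0.04 ± 0.11 (interval -0.20 to 0.29, adjusted p = 0.820). The sign of this small difference turned to -0.05 after rescaling to TPM. Klf9, a Kruppel-like transcription factor, was low in all libraries, at 1.70, 1.78 and 1.26 FPKM in sulfatide and 1.5, 2.22 and 2.74 FPKM in vehicle. The groups overlapped and the difference did not pass (log2 fold change -0.28 ± 0.17, interval -0.66 to 0.11, adjusted p = 0.289). At such levels log2(FPKM + 1) understates a change.

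Nr3c1, the receptor through which glucocorticoids act, was at 7.47, 10.5 and 8.91 FPKM in the sulfatide libraries and at 12.9, 10.4 and 13.4 FPKM in the vehicle libraries. The groups overlapped through sulfatide replicate 2 and vehicle replicate 3. The means were 8.95 ± 1.5 FPKM in sulfatide and 12.2 ± 1.62 FPKM in vehicle, and the difference did not pass (log2 fold change -0.41 ± 0.14, interval -0.74 to -0.09, adjusted p = 0.0772). It passed without sulfatide replicate 2 (adjusted p = 0.0450), without vehicle replicate 3 (0.0331) and after rescaling to TPM (0.0467). It did not pass under any other of the 13 alternatives to the processing, with adjusted p by limma of up to 0.409. Over all of them its log2 fold change was -0.52 to -0.236.

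**Figure D4:**
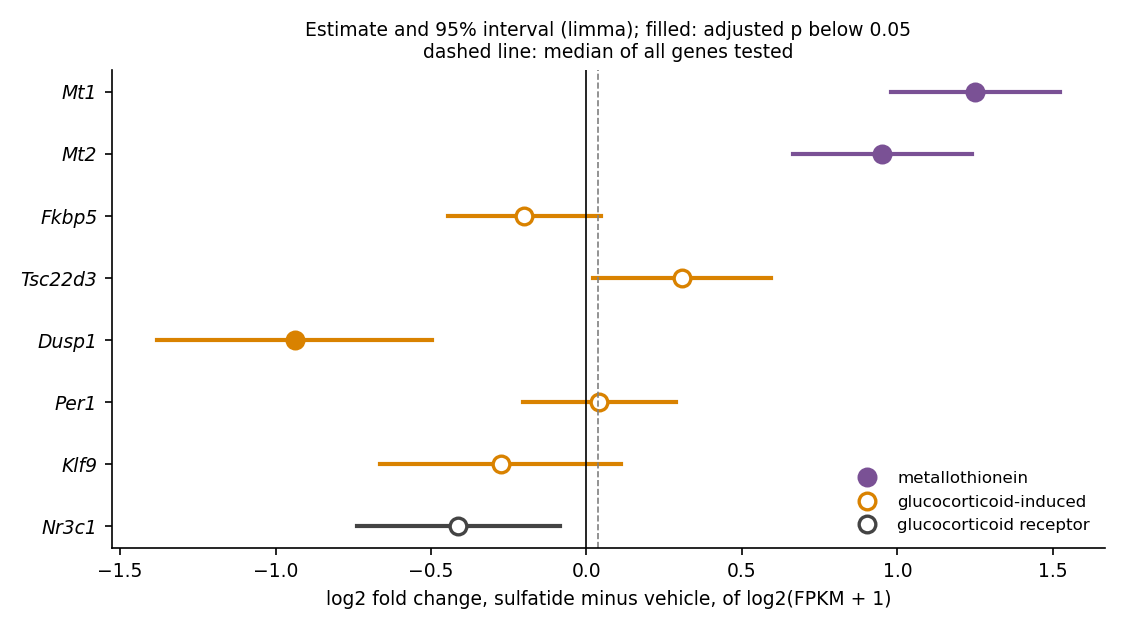
Log2 fold change (sulfatide minus vehicle, log2(FPKM + 1) scale) of each gene with its 95% interval by limma, coloured by role, with a dashed line at the median of all genes tested (0.04) and filled points for an adjusted p below 0.05. Mt1 (1.25) and Mt2 (0.95) lie to the right, Dusp1 (-0.94) to the left, and the other 5 genes between -0.41 and 0.31.

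By level, the order in both groups was metallothioneins, Dusp1, Tsc22d3, Fkbp5, Nr3c1, Per1 and Klf9, with FPKM compared per length. Neighbours in this order did not overlap between libraries of a group, except Mt1 and Mt2 in the sulfatide libraries. In vehicle Mt2 exceeded Mt1 in each library.

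Patterns over the 6 libraries were compared by the root mean square difference between centred log2(FPKM + 1) profiles, among 7970 tested genes with a mean of at least 5 FPKM. Mt2 was the ninth nearest gene to Mt1 (difference 0.168), and Mt1 ranked 39 for Mt2. The nearest to Mt1 were C130050O18Rik (0.0950), Nsmce1 (0.117), a subunit of the SMC5/6 complex, and Selenbp1 (0.120), which encodes a selenium-binding protein. The nearest to Mt2 were Avpi1 (0.0760), Sting1 (0.0784), the adaptor of cytosolic DNA sensing, and Ripk3 (0.114), a kinase of necroptosis. Avpi1 averaged 33.9 FPKM in sulfatide and 17.1 FPKM in vehicle, and Sting1 27.0 and 13.9 FPKM. The nearest to Dusp1 was Kctd12 (0.157), followed by Tapbp (0.168) and Fam53c (0.169). The 6 libraries form 2 groups, so a gene with a group difference of like size also scores as near.

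Zinc and copper genes showed no shared direction. Of 22 genes of zinc transport and MTF1, 18 were tested, with 1 higher and 1 lower. That is 11.1% called, beside 18.7% of all genes tested, and so no result about the list. Its median log2 fold change was -0.06 (-0.11 to -0.02 with a library left out), and 0.04 over all genes tested. The exporter Slc30a1, itself a target of MTF1, was called lower (15.98 ± 0.848 FPKM in sulfatide and 21.4 ± 1.84 FPKM in vehicle, adjusted p = 0.0284), and Slc30a5, which loads zinc into the secretory pathway, was called higher (43.5 ± 1.39 and 33.2 ± 1.91 FPKM, adjusted p = 0.0177). Slc30a1 did not pass without any single library other than vehicle replicate 3 (adjusted p = 0.0565 to 0.0969), nor Slc30a5 without sulfatide replicate 1 or 3 or vehicle replicate 2 or 4 (0.0547 to 0.0750). Mtf1, singled out after its values were seen, was at 9.83 ± 0.412 FPKM in sulfatide and 8.22 ± 0.280 FPKM in vehicle (adjusted p = 0.137). Of 12 copper genes 11 were tested, with 3 higher and 1 lower, 36.4% called beside 18.7% of all genes. The median was 0.15, and 0.06 to 0.22 with a library left out, lowest without vehicle replicate 4. The metalloreductase Steap4 rose 9.33-fold (12.5 ± 1.09 FPKM in sulfatide and 1.34 ± 0.168 FPKM in vehicle, adjusted p = 1.08e-05), and the copper transporter homologue Slc31a2 fell to 405 ± 31.2 FPKM, against 549 ± 37.7 FPKM in vehicle (adjusted p = 0.0113, and 0.0653 without vehicle replicate 2). The other higher genes were Sco2 and Sod1, and each was lost without any of sulfatide replicates 1 and 3 and vehicle replicates 2 and 4. Without sulfatide replicate 1 or 3 or vehicle replicate 2 or 4, 1 copper gene was called higher.

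Of the receptor complex, cortisone-activating enzymes and coregulators, 17 of 20 genes were tested, with 2 lower and none higher. The 11.8% called lie near the 10.4% of all genes called lower and below the 18.7% called in all, so the count is no result about this list, whose median was -0.11 (-0.15 to -0.07 with a library left out). These were the chaperone Hsp90ab1 (1025 ± 62.6 FPKM in sulfatide and 1296 ± 51.8 FPKM in vehicle, adjusted p = 0.0221) and the co-chaperone Stip1 (145 ± 13.6 and 184 ± 12.7 FPKM, adjusted p = 0.0365). Neither passed without sulfatide replicate 3 or vehicle replicate 2, and Stip1 also did not without sulfatide replicate 2 or vehicle replicate 3, nor Hsp90ab1 without sulfatide replicate 2 or vehicle replicate 4 (adjusted p = 0.0513 to 0.134). Hsd11b1, which makes active glucocorticoid from its inert form, was low, at 2.09, 2.08 and 1.62 FPKM in sulfatide and 1.81, 0.970 and 0.930 FPKM in vehicle (adjusted p = 0.131). The mineralocorticoid receptor gene Nr3c2 was listed at 0 in all 6 libraries.

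A further 31 genes known to be induced by glucocorticoids moved in both directions, with 5 higher and 8 lower of 22 tested (median -0.17, and -0.28 to -0.12 with a library left out), called at 59.1% beside 18.7% of all genes. Lcn2, the iron-binding lipocalin, rose 2.25-fold (758 ± 140.0 FPKM in sulfatide and 337 ± 41.9 FPKM in vehicle, adjusted p = 0.000829), and it is also a neutrophil and acute phase gene. Anxa1, a phospholipase inhibitor and mediator of glucocorticoid action, fell to 813 ± 9.85 FPKM, against 1090.1 ± 55.1 FPKM in vehicle (adjusted p = 0.00575). The cell cycle inhibitor Cdkn1a fell to 251 ± 30.7 FPKM, against 419.7 ± 23.2 FPKM in vehicle (adjusted p = 0.00125), and Il10 to 3.68 ± 1.2 FPKM, against 12.1 ± 3.69 FPKM (adjusted p = 0.00398). Of these genes, leaving out vehicle replicate 2 left 1 called higher, leaving out sulfatide replicate 3 left 2, and leaving out sulfatide replicate 1 or 2 or vehicle replicate 3 left 3. Of the 9 genes of this list that were not tested, Zbtb16, Fam107a, Pdk4 and Per2 stayed at or below 0.510 FPKM throughout. Of 18 tested inflammatory genes that glucocorticoids repress, 16 were lower and none higher (median -2.11), beside 10.4% of all genes called lower, and many of them are also targets of NF-kappaB.

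Genes related to the 8 were examined next. Of 9 other MAP kinase phosphatases 7 were tested, with 3 lower and none higher (median -0.57), 42.9% called beside 10.4% of all genes called lower, and 5 were lower without sulfatide replicate 2. Dusp2 fell to 14.1 ± 0.812 FPKM, against 28.7 ± 4.61 FPKM in vehicle (adjusted p = 0.000824), Dusp5 to 1.34 ± 0.414 FPKM, against 3.52 ± 0.327 FPKM (adjusted p = 0.00318), and Dusp4 to 3.45 ± 1.41 FPKM, against 6.42 ± 0.890 FPKM (adjusted p = 0.0338). Dusp4 passed with all libraries and without sulfatide replicate 2, and not without any other library (adjusted p = 0.0555 to 0.102). Of 20 further clock genes 14 were tested and 1 was called, 7.14% beside 18.7% of all genes. This was the repressor Nfil3, higher at 66.5 ± 2.56 FPKM in sulfatide and 46.3 ± 0.977 FPKM in vehicle (adjusted p = 0.00258). Without sulfatide replicate 2 a further 2 clock genes were called lower, and without vehicle replicate 3 there were 2 higher and 1 lower. Of 9 tested Kruppel-like factors other than Klf9, 1 was called, 11.1% beside 10.4% of all genes called lower, and so no result about the list. This was Klf6, lower at 26.3 ± 4.52 FPKM in sulfatide and 44.8 ± 7.53 FPKM in vehicle (adjusted p = 0.0118, and 0.0611 without vehicle replicate 2). Of the 3 relatives of Tsc22d3, 1 was called, 33.3% beside 10.4% of all genes called lower, and with 3 genes no result about the family. This was Tsc22d1, lower at 3.57 ± 0.198 FPKM in sulfatide and 6.54 ± 0.966 FPKM in vehicle (adjusted p = 0.00536).

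Acute phase genes and components of STAT3 and interleukin-6 signalling, another input to metallothionein genes, moved in both directions, with 7 higher and 3 lower members of 17 tested (58.8% called, beside 18.7% of all genes). The median was 0.07 (0.00 to 0.21 with a library left out, and -0.01 after rescaling to TPM). Without sulfatide replicate 1 or 3, 1 was lower. Haptoglobin (Hp) rose 4.23-fold (2040.1 ± 83.5 FPKM in sulfatide and 483 ± 66.1 FPKM in vehicle, adjusted p = 1.58e-05), and Saa1 was at 64.8 ± 5.35 and 2.21 ± 0.923 FPKM (adjusted p = 1.08e-05). Saa3 was also higher, at 82913 ± 3317 FPKM in sulfatide and 28515 ± 717 FPKM in vehicle (adjusted p = 3.89e-05 by limma). So was Timp1, at 743 ± 109 and 153 ± 29.7 FPKM (adjusted p = 4.24e-05 by limma). The kinase gene Pim1, a STAT3 target, fell to 83.2 ± 0.948 FPKM, against 180.1 ± 6.82 FPKM in vehicle (adjusted p = 5.03e-05). Socs3, the feedback inhibitor of the pathway, fell to 488 ± 53.3 FPKM, against 635 ± 18.0 FPKM in vehicle (adjusted p = 0.0216), and did not pass without sulfatide replicate 1 or 3 or vehicle replicate 2 or 4 (0.0632 to 0.0957). Stat3 averaged 49.9 FPKM in sulfatide and 48.1 FPKM in vehicle and did not pass (adjusted p = 0.715). Il6, the cytokine itself and a member of the inflammatory list, was at 0.350, 0.620 and 0.580 FPKM in sulfatide replicates 1, 2 and 3 and at 62.2, 73.5 and 14.2 FPKM in vehicle replicates 2, 3 and 4 (adjusted p = 0.000318). All sulfatide libraries were thus far below the vehicle libraries for Il6. Lcn2 and the Cebp genes stand in both this list and that of glucocorticoid-induced genes. The part of neutrophil transcripts in the metallothionein levels was not tested, nor was that of STAT3 and interleukin-6 signalling. The higher sum of neutrophil markers came mostly from Lcn2 and S100a8.

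**Figure D5:**
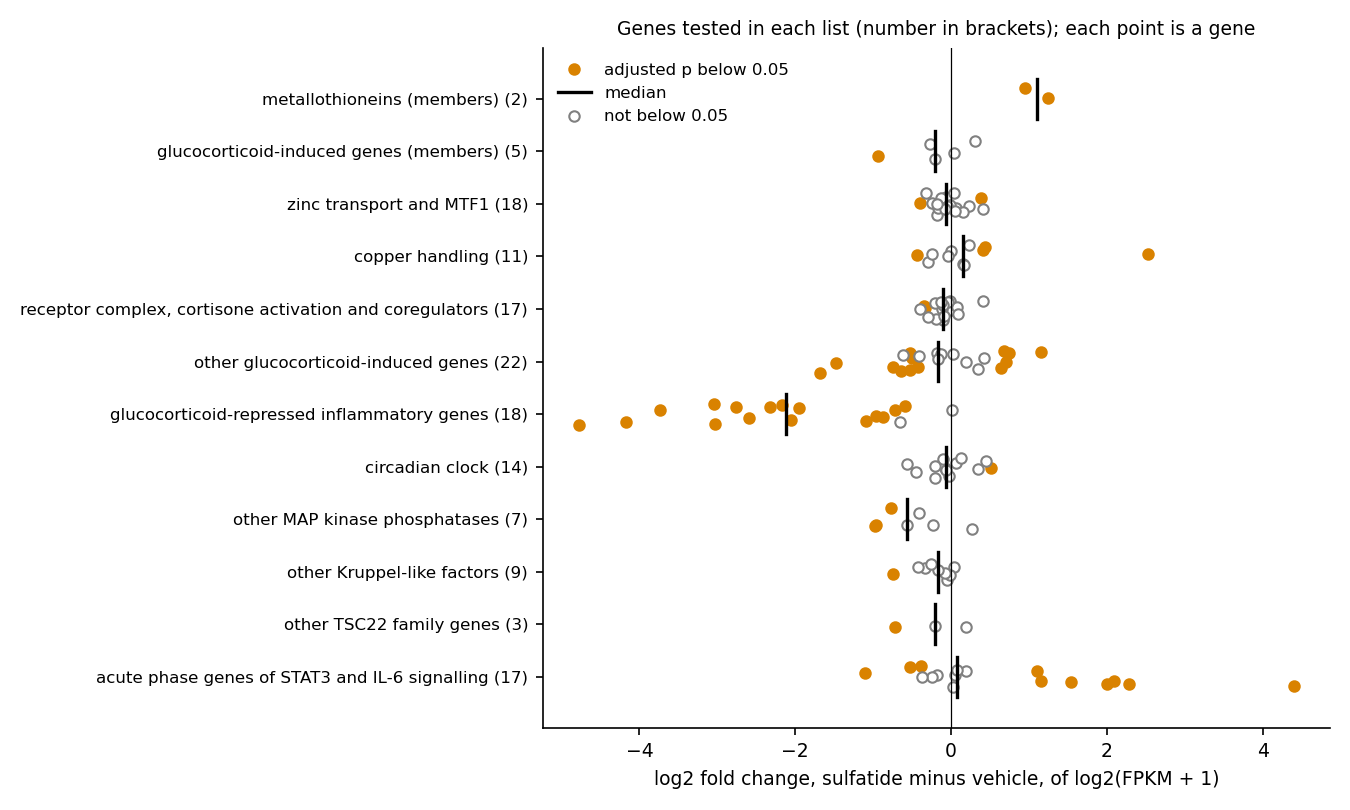
Log2 fold change (sulfatide minus vehicle, log2(FPKM + 1) scale) of each tested gene in each list, with filled points for an adjusted p below 0.05 and a bar at the median. Medians lie between -0.57 and 0.15, except 1.1 for the metallothioneins and -2.11 for the inflammatory genes that glucocorticoids repress.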

How the data were processed

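Per the labels' protocols, RNA of lavage cells was taken up in TRIzol, poly(A)-selected and made into strand-specific paired-end libraries. The authors deposited FPKM values per gene, rounded to 2 decimals. Per the submitters' processing notes, the build was mm10. Which aligner, counting program, annotation and strand setting were used is not given in the sources used here. A further 3 value columns of the table matched no sample and were not used.

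Values were analysed as log2(FPKM + 1) without further scaling, for 10405 genes at 1 FPKM or more in at least 3 libraries. FPKM are not counts, so limma 3.58.1 in R 4.3.3 was used (lmFit, eBayes with an intensity trend, 2-sided, Benjamini-Hochberg over all genes tested, called below 0.05). Differences are sulfatide minus vehicle, folds are ratios of mean FPKM, and n is 3 libraries per group. Fold changes on this scale understate those of low genes. The ratio and share of metallothioneins were compared by exact permutation (scipy 1.17.1). Gene positions are from GENCODE M21.

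The 8 genes, the gene lists and the naming rule (all 8 genes, up to 4 per list by p, the 3 nearest patterns of a gene) were chosen with earlier results of these data known. Sco2 and Sod1 and the untested targets named by level complete counts or are named after their values were seen, as are the cell type markers, Pim1, Socs3, Stat3 and Il6. Alternatives changed the pseudocount (0.5 or 0.1), dropped the filter or raised it to 5 FPKM, used TPM-rescaled or quantile-normalized values, added the replicate number as a block, or left out each library in turn.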

Additional observations from a re-analysis of the deposited data

How the results depend on the processing

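Mt1 (1.12 to 1.36) and Mt2 (0.795 to 1.03, log2 fold change) stayed called higher, and Dusp1 (-1.12 to -0.636) lower, under all 13 alternatives, with adjusted p of 0.00012 to 0.0024, 0.00106 to 0.00987 and 0.00221 to 0.0400. Fkbp5, Tsc22d3 and Klf9 kept their sign and did not pass under any (0.0730 to 0.525, 0.0923 to 0.329, and 0.154 to 0.694, Klf9 having no value with the filter at 5 FPKM). Per1 turned to -0.0547 after rescaling to TPM, to -0.00693 without sulfatide replicate 1 and to -0.00375 without vehicle replicate 3 (-0.00693 to 0.0722 with a library left out). Of the 8 genes, 2 were higher under each alternative, and the number lower was 2 after rescaling to TPM and 1 to 2 with a library left out, the second being Nr3c1. The difference in the log2 ratio of Mt2 to Mt1 was -0.341 to -0.227 with a library left out.

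Over all genes, the number higher was 522 with no filter on low values and 467 after rescaling to TPM, beside 865, and 268 to 1421 with a library left out. The number lower was 915 with no filter on low values and 1527 after rescaling to TPM, beside 1078, and 642 to 1135 with a library left out. Numbers 2 and 3 are shared between the groups, but the deviations of same-numbered libraries correlated at 0.156 and -0.303, so the numbers were not taken to pair the libraries, and 2 such pairs do not settle whether they do. With the replicate number as a block, 297 genes were higher and 635 lower, while the calls of the 8 genes stayed as they were. Only some of the other named genes were followed through the alternatives. Left out were Stat3, Saa3, Timp1, the genes of nearest pattern and most cell type markers, among others. Of the alternative values for the genes followed, 306 kept their side of the threshold, 55 lost their call and none turned its sign. Under the block the lost calls included Slc30a1, Slc30a5, Sod1, Sco2, Hsp90ab1, Dusp4, Slc31a2, Socs3 and Itgax. The cause was not tested. Absolute depth is unknown, which limits what can be said of genes near 1 FPKM such as Klf9.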
